A study of Homo sapiens with 20 samples.

Results

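BCOR binding to chromatin was examined after 1 h of dexamethasone (dex), a synthetic glucocorticoid, in HEK293-GR cells, a human embryonic kidney line that constitutively expresses the glucocorticoid receptor (GR). Anti-BCOR chromatin immunoprecipitation and sequencing (ChIP-seq) was done on cells given 100 nM dex and on cells given ethanol, the vehicle (EtOH), with 2 biological replicate libraries per treatment and input chromatin as the control. These are 4 of the 20 libraries of the series. All cells had spent 48 h in medium depleted of steroids, and all carried the added receptor, so no group lacked it; whether the line is a single clone is not given in the sources used here. The peaks came as 3 lists in hg19 coordinates: 3055 dex-enriched peaks, 267 vehicle-enriched peaks and 8587 shared peaks, 11909 in all. They are used here as bound regions gained, lost and retained after hormone. The other 16 libraries are polyA RNA from cells transfected for 72 h with 20 nM of siRNA against BCOR (siBCOR) or of a non-targeting pool (siNON), then given 100 nM dex or EtOH for 6 h, with 4 libraries in each of the 4 groups. RNA served as a second readout, from libraries other than the ChIP-seq ones.

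BCOR is a corepressor and a subunit of PRC1.1, a Polycomb complex whose subunit KDM2B binds unmethylated CpG dinucleotides and so brings the complex to CpG islands, the CG-rich stretches at many promoters. There PRC1.1 places ubiquitin on histone H2A, and HOX and other developmental genes are classical Polycomb targets. GR enters the nucleus when it binds hormone and mostly occupies enhancers away from promoters, through an inverted repeat of a short DNA motif. It induces genes such as FKBP5 and PER1 and lowers others.

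Some peaks of both classes that changed lay at gene starts. The windows below show what such starts look like, with each CpG dinucleotide in capitals. They run from 250 bases before to 50 bases after the start in RefSeq (GRCh38.p14), while peak positions are in hg19, and the builds were not converted into each other. For each class, they belong to the 3 genes with the closest peak among those that have a window in the RefSeq table and are named below for the largest RNA changes. NRP2 encodes a co-receptor for semaphorins and vascular growth factors, TIPARP a mono-ADP-ribosyltransferase, and WNT16 a secreted Wnt ligand. HRK encodes a pro-apoptotic BH3-only protein, TNS2 a focal adhesion protein, and ICOSLG a ligand for a T cell costimulatory receptor.
Next to dex-enriched peaks were:
NRP2: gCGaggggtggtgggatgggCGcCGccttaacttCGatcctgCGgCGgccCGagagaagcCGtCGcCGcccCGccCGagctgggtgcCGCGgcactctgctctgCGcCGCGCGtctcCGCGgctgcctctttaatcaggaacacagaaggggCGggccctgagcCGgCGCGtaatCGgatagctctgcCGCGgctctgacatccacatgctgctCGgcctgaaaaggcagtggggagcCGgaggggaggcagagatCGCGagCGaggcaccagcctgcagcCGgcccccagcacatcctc
TIPARP: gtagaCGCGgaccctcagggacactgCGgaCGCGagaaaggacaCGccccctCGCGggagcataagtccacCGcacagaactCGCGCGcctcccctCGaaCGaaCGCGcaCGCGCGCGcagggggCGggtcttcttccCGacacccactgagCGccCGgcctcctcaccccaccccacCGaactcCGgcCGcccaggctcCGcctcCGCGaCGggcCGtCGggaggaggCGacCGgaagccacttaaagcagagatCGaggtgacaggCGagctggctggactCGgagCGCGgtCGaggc
WNT16: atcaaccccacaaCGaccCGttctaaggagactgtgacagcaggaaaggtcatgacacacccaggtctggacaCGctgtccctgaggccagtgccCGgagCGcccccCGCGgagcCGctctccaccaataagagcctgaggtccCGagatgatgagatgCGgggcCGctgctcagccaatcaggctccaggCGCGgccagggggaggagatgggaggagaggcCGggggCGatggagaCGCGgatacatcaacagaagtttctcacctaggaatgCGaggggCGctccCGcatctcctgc
Next to vehicle-enriched peaks were:
HRK: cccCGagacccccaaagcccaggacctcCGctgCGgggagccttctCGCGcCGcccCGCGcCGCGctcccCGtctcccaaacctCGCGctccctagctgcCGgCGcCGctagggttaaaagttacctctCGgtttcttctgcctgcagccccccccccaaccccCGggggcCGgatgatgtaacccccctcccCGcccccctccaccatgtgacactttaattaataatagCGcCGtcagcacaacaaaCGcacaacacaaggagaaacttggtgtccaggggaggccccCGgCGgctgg
TNS2: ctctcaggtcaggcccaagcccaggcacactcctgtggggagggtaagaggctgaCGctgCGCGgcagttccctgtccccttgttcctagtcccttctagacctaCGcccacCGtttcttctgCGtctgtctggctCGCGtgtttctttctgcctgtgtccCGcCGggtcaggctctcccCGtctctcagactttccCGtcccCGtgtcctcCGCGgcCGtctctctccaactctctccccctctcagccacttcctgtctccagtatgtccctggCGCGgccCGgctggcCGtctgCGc
ICOSLG: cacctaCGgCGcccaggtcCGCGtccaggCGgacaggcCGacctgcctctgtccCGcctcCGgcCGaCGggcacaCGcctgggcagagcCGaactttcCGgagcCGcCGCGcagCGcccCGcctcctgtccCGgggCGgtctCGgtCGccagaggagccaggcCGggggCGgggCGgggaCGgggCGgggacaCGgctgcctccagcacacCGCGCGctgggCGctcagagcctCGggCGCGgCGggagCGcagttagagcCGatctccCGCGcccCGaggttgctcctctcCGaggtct

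The NRP2 window lies at chr2:205682251-205682550 on the plus strand and holds 33 CpGs, and the dex-enriched peak chr2:206547070-206547404 in hg19 was centred 12 bp downstream of the NRP2 start. The TIPARP window, chr3:156674340-156674639 on the plus strand, holds 41 CpGs, and the WNT16 window, chr7:121328750-121329049 on the plus strand, holds 20. Their dex-enriched peaks were centred 188 and 198 bp upstream of the starts. HRK (chr12:116881392-116881691, minus strand), TNS2 (chr12:53046741-53047040, plus strand) and ICOSLG (chr21:44240894-44241193, minus strand) hold 25, 21 and 42 CpGs. The median over all protein-coding genes with a window was 22 CpGs. WNT16 and TNS2 lay just below that median and the other 4 above it.

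Among protein-coding genes, windows were found for 131 of 145 genes with a dex-enriched peak within 1 kb of the start, 101 of 123 with a vehicle-enriched peak, and 2226 of 2628 with only a shared peak. The ratio of observed to expected CpGs exceeded 0.6, a usual mark of a CpG island, in 77.9% of the windows at dex-enriched peaks, 87.1% at vehicle-enriched peaks and 87.7% at shared peaks, against 62.8% of the 12910 windows with no peak within 1 kb. The 95% Wilson intervals were 70.0 to 84.1% at dex-enriched peaks and 79.2 to 92.3% at vehicle-enriched peaks. The full GR-type inverted repeat, sought as GNACA, any 3 bases and TGTNC, reads as itself on both strands. It occurred in 38 of 15368 windows (0.247%), and in 2 of 131 at dex-enriched peaks (1.53%, 0.420 to 5.40%). At vehicle-enriched peaks it occurred in 0 of 101 (up to 3.66%). One of the dex-enriched matches is in WNT16, where GGACACGCTGTCC begins 182 bases before the RefSeq start. The other is GTACAGTATGTTC in GPR1, a gene for a chemerin receptor, on chromosome 2 (window chr2:206213322-206213621, minus strand). The single motif AGAACA, sought on both strands and overlapping the full repeat where that repeat holds it, occurred in 12 of 131 windows at dex-enriched peaks (9.16%) and 1698 of all 15368. A match is only letters in the window. Sequences of the peaks themselves were not analysed here.

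After 1 h of hormone, gain outnumbered loss. The gain share, dex-enriched peaks among dex-enriched and shared ones, was 26.2% (3055 of 11642; 95% Wilson interval 25.45 to 27.05%). The loss share, vehicle-enriched peaks among vehicle-enriched and shared ones, was 3.02% (267 of 8854; 2.68 to 3.39%). Each list covers both libraries of a treatment, so no library has a value of its own, no test between libraries could be made, and intervals cover counting error only. The rule that sorted the peaks is not given in the sources used here, and the score of every peak is 0, so no stricter list could be made.

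The lists carry a trace of how they were built. Of the dex-enriched peaks, 2994 were single peaks of 335 bp and 61 were merged, read from a name that ends in 2 and a width beyond that of single peaks. Of the vehicle-enriched peaks, 265 were single peaks of 319 bp and 2 were merged. The shared list held 2967 merged peaks (34.6%), 3301 single peaks of the 335 bp width and 2319 of the 319 bp width. Counting only merged shared peaks as retained, a choice made after seeing the data, the gain share was 50.7% and the loss share 8.26%. The size of either share therefore rests on how retention was defined. Both shares hold the same retained count, so their order follows from the lengths of the dex-enriched and vehicle-enriched lists alone. ChIP depth is not given in the sources used here, so its part in those lengths was not tested. No peak of any list overlapped one of another by 1 bp, and 33 dex-enriched and 10 vehicle-enriched peaks lay within 500 bp of a shared one.

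Gained peaks were mostly away from gene starts, and lost peaks were often at them. Within 1 kb of a start lay 178 dex-enriched peaks (5.83%, 5.05 to 6.71%), 122 vehicle-enriched peaks (45.7%, 39.8 to 51.7%) and 2817 shared peaks (32.8%, 31.8 to 33.8%). The median distance from peak centre to nearest start was 33170 bp for dex-enriched, 2066 bp for vehicle-enriched and 8546 bp for shared peaks. Beyond 50 kb from any start were 38.1% of dex-enriched, 17.2% of vehicle-enriched and 21.6% of shared peaks. The subsets of the shared list all lay between the changed classes, with 31.3% of merged peaks, 28.5% of single 335 bp peaks and 40.8% of single 319 bp peaks within 1 kb of a start. Within an annotated transcript were 61.1% of dex-enriched, 70.8% of vehicle-enriched and 59.0% of shared peaks. The classes thus differed in distance to the start more than in the share inside genes.

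**Figure D1:**
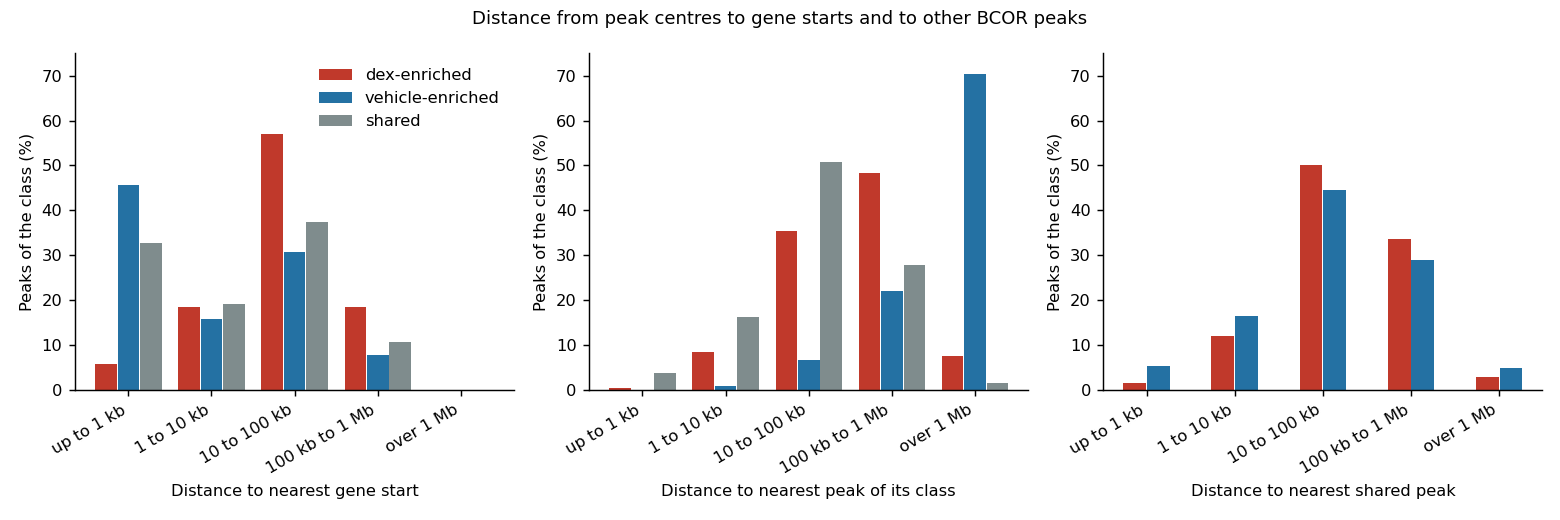
Share of the peaks of each class (percent, vertical axis) by distance in bins from the peak centre to the nearest gene start (left), the nearest peak of the same class (middle) and the nearest shared peak (right). Bars are dex-enriched, vehicle-enriched and, in the left and middle panels, shared peaks, and dex-enriched peaks reach 5.83% within 1 kb of a start, against 45.7% of vehicle-enriched and 32.8% of shared peaks, and 70.4% of vehicle-enriched peaks have no peak of their class within 1 Mb.

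Gained peaks also lay in regions with fewer genes. The median number of gene starts within 500 kb of the peak was 10 (interval 9 to 10) for dex-enriched, 13 (12 to 15) for vehicle-enriched and 13 (13 to 13) for shared peaks. At most 5 genes surrounded 22.1% of dex-enriched, 17.6% of vehicle-enriched and 14.8% of shared peaks. More than 30 genes surrounded 5.56% of dex-enriched, 14.2% of vehicle-enriched and 15.6% of shared peaks.

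In 3107 windows of 1 Mb, the gain share was 40.7% in the 350 windows with 0 genes, 33.9% with 1 to 5 genes, 32.0% with 6 to 10, 26.2% with 11 to 20, 16.9% with 21 to 30 and 11.9% in the 129 windows with over 30. The bin without genes rests on 22 dex-enriched and 32 shared peaks. Numbers of gained peaks did not fall toward dense regions. Dex-enriched peaks came to 61.0 per 100 windows with 1 to 5 genes, 134 with 6 to 10, 156 with 11 to 20, 131 with 21 to 30 and 136 with over 30. Shared peaks came to 119, 285, 439, 646 and 1007 per 100 windows over the same bins. The falling gain share thus followed the climb in shared peaks, with gained peaks nearly level from 6 genes per window on. Leaving out peaks within 1 kb of a start, the share was 37.9% with 1 to 5 genes and 38.9% with 6 to 10, and lower beyond, at 33.8% with 11 to 20, 22.9% with 21 to 30 and 17.1% with over 30. The loss share was 3.31, 2.95, 2.80, 3.58 and 2.84% over the bins from 1 to 5 genes upward, with overlapping intervals.

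**Figure D2:**
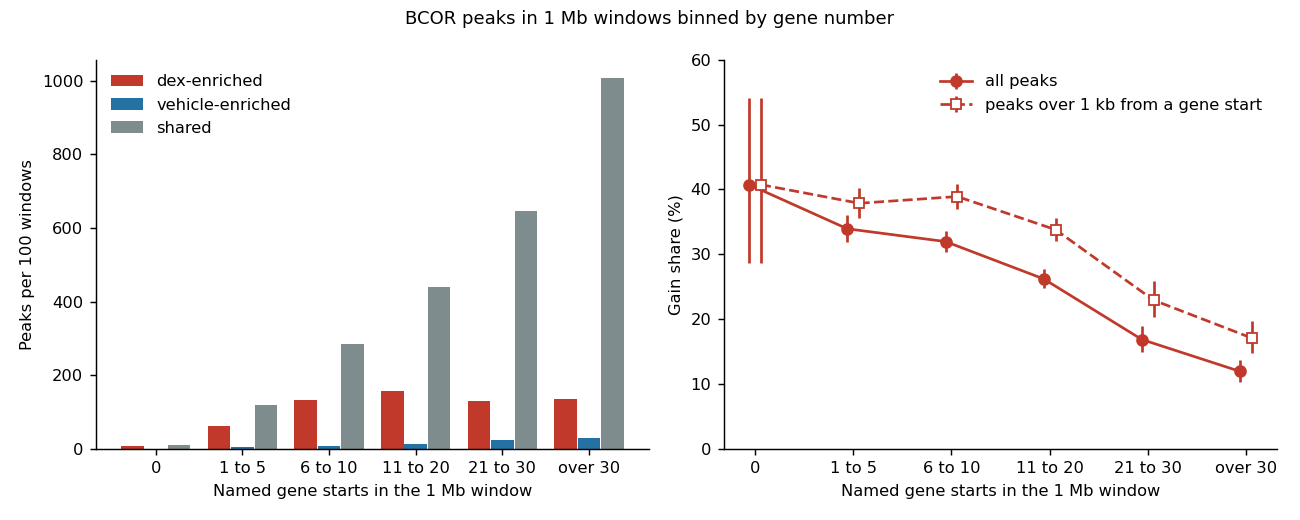
Left, peaks per 100 windows of 1 Mb for dex-enriched, vehicle-enriched and shared peaks, by the number of named gene starts in the window. Right, gain share (percent) with 95% Wilson intervals in the same bins, for all peaks (filled) and for peaks over 1 kb from a gene start (open). Shared peaks climb to 1007 per 100 windows while dex-enriched peaks stay between 131 and 156 from 6 genes on, and the gain share ends at 11.9%.

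Chromosomes differed in the same way. The gain share was highest on chromosome 18, a gene-poor chromosome, at 51.2% (42.5 to 59.9%; 63 dex-enriched against 60 shared peaks), followed by chromosome 4 at 37.5%, chromosome 2 at 36.1%, chromosome 8 at 34.2% and chromosome 13 at 33.9%. It was lowest on chromosome 19, the chromosome with most genes per Mb, at 8.42% (6.68 to 10.6%; 67 dex-enriched against 729 shared peaks). Chromosomes 17 (19.0%), 16 (20.5%), 20 (20.5%) and 15 (22.2%) came next. Per Mb, chromosome 19 held 1.13 dex-enriched and 12.3 shared peaks, and chromosome 18 held 0.808 dex-enriched and 0.769 shared peaks. Between these chromosomes the shared density thus differed far more than the gained density. Without peaks within 1 kb of a start the gain share was 59.8% on chromosome 18 and 11.7% on chromosome 19.

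Across 23 chromosomes (Y held 1 shared peak and was left out), the gain share went with genes per Mb at a Spearman rho of -0.84 (Pearson r -0.78), and at -0.81 for peaks over 1 kb from a start. The loss share had a rho of -0.04. Dex-enriched peaks per Mb had a rho of 0.51 with genes per Mb, shared peaks per Mb a rho of 0.74, and dex-enriched with shared peaks per Mb 0.87. These are descriptions over chromosomes, which share the libraries, the annotation and their base composition, and the gain share holds the shared count in its denominator.

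**Figure D3:**
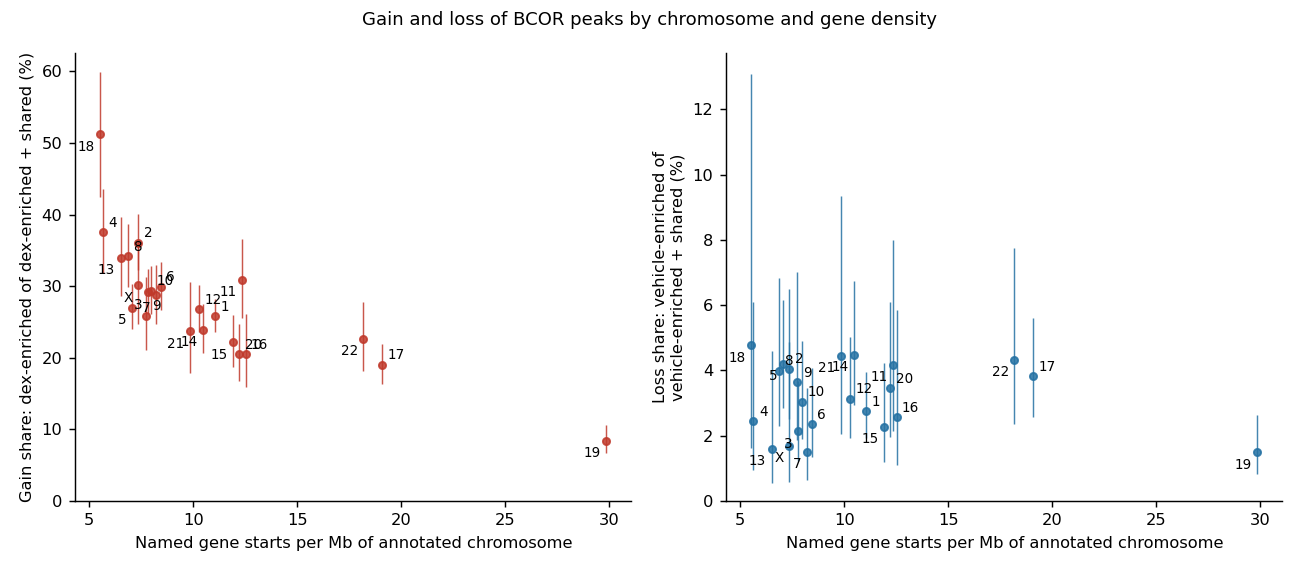
Gain share (left) and loss share (right) of each chromosome in percent with 95% Wilson intervals, against named gene starts per Mb. Points are labelled by chromosome; chromosome 18 (51.2%) and chromosome 19 (8.42%) are the ends of the gain axis, and the loss shares show no such slope (rho -0.04).

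Spacing within a class followed the length of its list. The median distance to the nearest peak of the same class was 130 kb (121 to 139 kb) for dex-enriched, 2467 kb for vehicle-enriched and 44.0 kb for shared peaks. Divided by the mean spacing of the class it was 0.132 for dex-enriched, 0.219 for vehicle-enriched and 0.126 for shared peaks, so dex-enriched and shared peaks were alike on this scale. Linked at up to 10 kb, 267 dex-enriched peaks (8.74%) fell into 132 clusters, of which 129 held 2 peaks and 3 held 3. Of the vehicle-enriched peaks, 2 (0.749%) formed 1 cluster, and 1711 shared peaks (19.9%) formed 789 clusters of up to 6 peaks. At this link most gained peaks stood alone. The lists differ in length, which this share does not adjust for.

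Of the clusters of 3 dex-enriched peaks, 2 are described here, and both lay near genes that rose with dex in siNON cells at 6 h, a call made for 10.7% of all genes tested (8.64% fell). In RNA of whole cultures, fewer expressing cells and less RNA per cell cannot be told apart. The one at chr12:104242717-104253231, lay 12998 bp from the start of NT5DC3, a 5'-nucleotidase domain protein, with the pseudogene TTC41P across it. The other, chr19:18124815-18136010, reached into ARRDC2, an arrestin-domain gene. Log2 fold changes with dex were 0.92 ± 0.09 for NT5DC3 and 1.05 ± 0.09 for ARRDC2 (± SE; edgeR adjusted p = 4.23e-07 and 4.72e-08). The pseudogene TTC41P stood at 0.34 ± 0.27 and was not called (edgeR adjusted p = 0.423).

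Among the pairs that cluster most tightly, direction varied. The pair chr1:65420775-65422053 lay inside JAK1, a cytokine receptor kinase. JAK1 stood at 289, 291, 295 and 282 CPM (counts per 1e6) in siNON dex libraries, against 110.3, 119, 112 and 101 CPM in siNON EtOH, with no overlap between the groups (log2 fold change 1.39 ± 0.06; edgeR adjusted p = 9.42e-12). The pair chrX:12326680-12328056 lay inside FRMPD4, a neuronal scaffold protein, which had 10.5, 9.59, 9.92 and 10.8 CPM in siNON dex libraries, against 24.3, 25.2, 25.7 and 21.7 CPM in siNON EtOH. FRMPD4 fell (-1.25 ± 0.09; edgeR adjusted p = 1.60e-08), again without overlap. FILIP1L, around the pair chr3:99575109-99576398, rose by 1.02 ± 0.17. Neither CMSS1 nor the nearest start there, HP09053, was called, and nor were NOS1 and KSR2, FRZB or KCNA6 at their pairs. CELF2, around a pair on chromosome 10, rose by 0.34 ± 0.10, although its groups overlapped and it was called in only 8 of 12 other fits. The single cluster of vehicle-enriched peaks spanned 5462 bp over the start of LINC01629, a noncoding gene too low for the RNA test.

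The nearest neighbour of a dex-enriched peak was another dex-enriched peak in 35.6%, against the 25.6% of all other peaks that are dex-enriched. The neighbour was shared in 62.9%, against 72.1% of all other peaks. Vehicle-enriched peaks had a shared neighbour in 77.2% and a dex-enriched one in 20.6%, near the make-up of the lists (72.1 and 25.7%). Read along the chromosomes, dex-enriched peaks formed 2043 unbroken runs, of which 1418 were single peaks and 30 held 5 or more. The shared runs reached 71 peaks, and vehicle-enriched runs did not exceed 2.

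The longest runs of gain, picked after the data were seen, lay in different settings. The longest, 9 peaks at chr13:39975353-41222567, spanned 1247 kb with LHFPL6 and COG6, neither of which was called with dex. A run of 8 peaks at chr2:142833947-148245742 stretched over 5412 kb without any shared or vehicle-enriched peak and holds ZEB2, a zinc-finger repressor of epithelial genes. ZEB2 fell (-0.77 ± 0.16; edgeR adjusted p = 0.00155) and was the one called gene of the 4 tested there. At chr6:35328050-35683455, 6 dex-enriched peaks followed each other over 355 kb around FKBP5, the co-chaperone that restrains GR. FKBP5 rose by 2.33 ± 0.06, while FANCE, RPL10A and TEAD3 in the same span had log2 fold changes of -0.01, -0.04 and -0.07, none of them called. Of the 5 other runs of 7 or 8 peaks, 4 held no called gene. The fifth, chr18:55825190-56722416, held LOC101927322, which fell (-1.03 ± 0.35; edgeR adjusted p = 0.0473).

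Most gained peaks lay more than 10 kb from a retained one. The median distance from a dex-enriched peak to the nearest shared peak was 62.0 kb (57.0 to 66.0 kb), and 13.4% (12.2 to 14.6%) lay within 10 kb of one. For vehicle-enriched peaks it was 48.7 kb (37.0 to 64.5 kb), with 21.7% (17.2 to 27.1%) within 10 kb. Gain and loss were farther apart, at a median of 2895 kb from a dex-enriched to a vehicle-enriched peak and 245 kb from a vehicle-enriched to a dex-enriched one. These medians also follow the sizes of the lists. Just 16 dex-enriched peaks had a vehicle-enriched one within 10 kb. On the scale of 1 Mb windows, 1389 held a dex-enriched peak and 154 of them (11.1%) had no shared peak, while 666 of 1901 windows with a shared peak (35.0%) had no dex-enriched one. The window richest in gain, chr3:61000001-62000000, held 11 dex-enriched and 4 shared peaks among 2 genes. The window richest in shared peaks, chr19:1000001-2000000, held 0 dex-enriched and 42 shared peaks among 42 genes.

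Beyond 1 Mb from any shared peak lay 88 dex-enriched peaks (2.88%). The farthest, chr7:51674483-51674842, was 6061 kb from a shared peak and 290.1 kb from the start of COBL, an actin nucleator. The next, chr7:50859670-50860004, was 5246 kb from a shared peak but 0.830 kb from the start of GRB10, an adaptor that dampens insulin signalling. GRB10 stood at 76.7, 74.2, 83.4 and 65.1 CPM in siNON dex libraries, against 79.9, 95.7, 66.9 and 76.4 CPM in siNON EtOH. These groups overlapped, and GRB10 was not called (-0.09 ± 0.10; edgeR adjusted p = 0.588). RGS2, a brake on G protein signalling, had its start 26.2 kb from the fourth of these peaks and rose by 0.63 ± 0.12 (edgeR adjusted p = 0.000583). The others of the 10 farthest were nearest to ZAR1, LINC01832, LOC105377342, LHFPL1, MIR4329 and TEX41, which were too low for the RNA test, and to PABPC1P2, which was not called.

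The RNA libraries held 18580294 to 28054808 counts over the transcripts used, and 16432 genes were tested with edgeR at a false discovery rate of 0.05. BCOR itself had 15.5, 14.8, 14.9 and 13.8 CPM in siBCOR dex libraries, against 96.8, 102, 106 and 70.6 CPM in siNON dex, a log2 fold change of -2.67 ± 0.12 (edgeR adjusted p = 1.51e-09). In siNON cells it fell with 6 h of dex (-1.06 ± 0.11; 96.8, 102, 106 and 70.6 CPM with dex against 227, 210.3, 159 and 189 CPM with EtOH; edgeR adjusted p = 1.45e-06). NR3C1, the gene of GR, fell as well (-0.50 ± 0.05; edgeR adjusted p = 1.80e-06), and its nearest dex-enriched peak was 267772 bp away. The nearest dex-enriched peak to the BCOR start was 51.8 kb away and the nearest shared peak 11.6 kb. The 5 HEK293 markers looked at summed to 1259 to 1374 CPM in siNON dex and 1162 to 1397 CPM in siNON EtOH. The 13 markers of immune, liver, fibroblast, endothelial and muscle cells, of which 5 passed the filter, summed to 29.4 to 48.4 CPM with dex and 32.2 to 49.0 CPM with EtOH. Most of that sum came from the fibroblast markers COL1A1 (22.0 to 39.4 CPM over siNON libraries) and COL3A1 (3.98 to 7.36 CPM). The highest of the others was DES, at up to 1.29 CPM. One library, siNON dex replicate 4, stood apart: without it the fit called 2072 genes higher and 1978 lower with dex.

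Genes near gained peaks rose more often than other genes. Of all genes tested, 1760 (10.7%) were called higher and 1420 (8.64%) lower with dex in siNON cells. Which direction had more calls depended on the fit, with 1675 higher and 1680 lower by DESeq2, 1340 and 1529 without a filter on low counts, and 1373 and 1396 without siNON EtOH replicate 3. Of 579 genes with a dex-enriched peak within 5 kb of the start, 445 passed the filter on low counts. Of these, 172 (38.7%) were higher and 35 (7.87%) lower, with a median log2 fold change of 0.18 against -0.00 over all genes. A gene could pass that filter through its dex libraries alone. Without the filter, in the fit that called 1340 genes higher, 28.1% of genes with such a peak were higher and 7.10% lower. A vehicle-enriched peak within 5 kb was found at 188 genes, and of 167 tested 14 (8.38%) were higher and 17 (10.2%) lower, with a median of 0.00. These small counts moved with single libraries. The share higher was 5.39% without siNON EtOH replicate 3, and 4.92% without a filter on low counts (9.29% lower). The share lower was 5.99% without siNON EtOH replicate 2 or siNON dex replicate 1, and 6.59% without siNON dex replicate 2. Over all genes, the fits named for the share lower called 1227, 1171 and 1140 genes lower, in that order. Of 3650 genes with only a shared peak, 10.7% were higher and 12.1% lower. Genes near lost or retained peaks were thus close to the background in the share called higher. A shared peak beside the gained one did not remove the excess: 30 of 65 such genes (46.2%) were higher, against 142 of 380 with a dex-enriched peak alone (37.4%). That difference was not tested.

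The share of genes called higher went down with distance to the nearest dex-enriched peak, except at the start itself. It was 27.3% up to 1 kb (45 of 165), 45.4% at 1 to 5 kb (127 of 280), 29.7% at 5 to 20 kb, 17.7% at 20 to 50 kb, 11.9% at 50 to 100 kb, 8.86% at 100 to 500 kb and 6.91% beyond. For shared peaks it stayed between 7.87 and 12.1% in every bin. The number of gained peaks went with it as well: with 0, 1, 2 and 3 dex-enriched peaks within 50 kb, 8.45, 22.3, 39.5 and 58.8% of genes were higher (30 of 51 in the last group). Genes beside each other can share a peak, and these bins were chosen after earlier values were known.

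**Figure D4:**
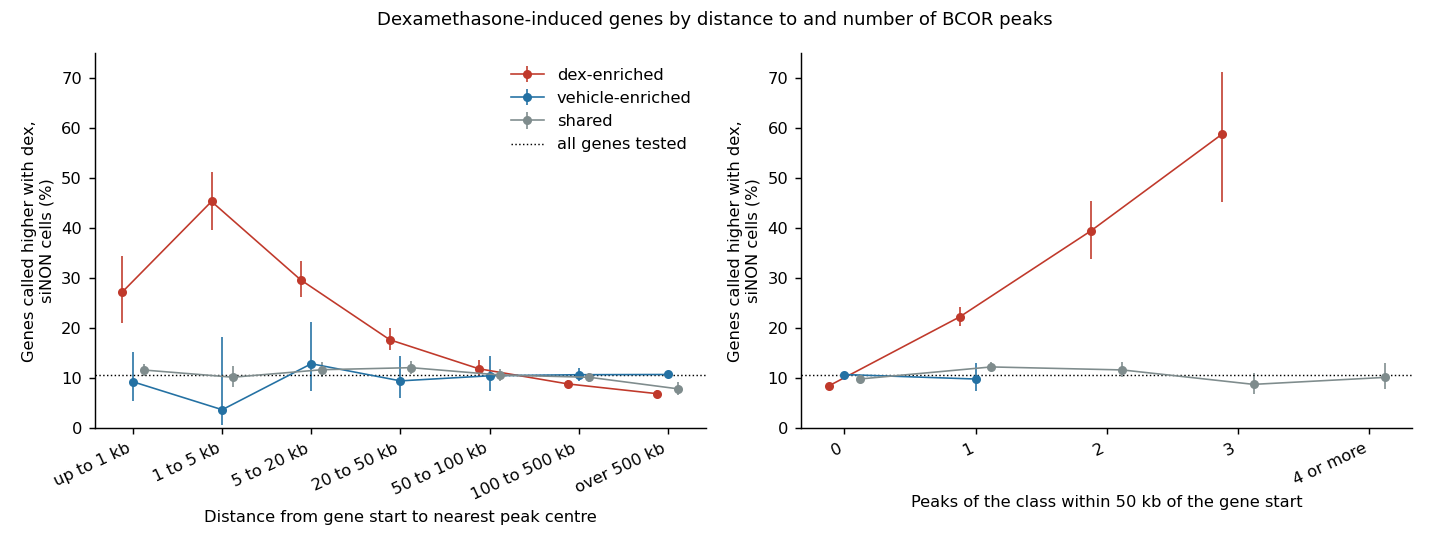
Genes called higher with dex in siNON cells (percent, 95% Wilson intervals) by distance from the gene start to the nearest peak of each class (left) and by the number of peaks of the class within 50 kb (right), for bins of at least 20 genes. The dotted line marks the 10.7% of all genes tested. The dex-enriched line reaches 45.4% at 1 to 5 kb and 58.8% with 3 peaks, while shared peaks stay between 7.87 and 12.3% in both panels and vehicle-enriched peaks fall to 3.70% (1 of 27 genes) at 1 to 5 kb.

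Gene density around the gene moved with the hormone response over all genes, so it was set beside the counts. Of genes with at most 5 other starts within 500 kb, 8.64% were higher and 20.0% lower with dex, and with over 30 others 9.20% were higher and 4.28% lower. Of genes with a dex-enriched peak within 50 kb, 21.7, 27.5, 27.8, 23.6 and 20.9% were higher over the 5 bins from sparse to dense, against 8.64, 10.5, 11.7, 12.5 and 9.20% of all genes. The higher share near gained peaks was thus found in every density bin.

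By function, most glucocorticoid-induced genes rose, near gained peaks and away from them. Of 37 tested, 26 were higher and 1 lower (70.3 and 2.70%, median 1.29). Of the 17 with a dex-enriched peak within 50 kb, 15 were higher and 0 lower, and of the 20 without, 11 were higher and 1 lower; the difference was not tested. Over all genes tested, 2216 of 16432 had a dex-enriched peak that near. Of 36 HOX genes tested, 2 were higher and 30 lower (median -0.86). All 39 HOX genes had a shared peak within 50 kb and 12 had a dex-enriched one, against 10913 and 3192 of all 27835 symbols. Of 11 of these that were tested, 1 was higher and 9 lower, against 1 and 21 of the 25 others. HOX genes thus fell both beside gained peaks and away from them, and neighbouring HOX genes share peaks and reads. Of 43 developmental factors tested, 2 were higher and 20 lower (median -0.33), with 2 and 4 of the 12 near a gained peak and 0 and 16 of the 31 others. Immediate early genes had 1 higher and 9 lower of 20, and growth control genes 5 and 9 of 23. PRC1.1 genes had 1 higher and 1 lower of 11, PRC2 genes 2 and 1 of 11, and GR and its coregulators 3 and 3 of 20. Over all genes tested, 10.7% were higher and 8.64% lower, and PRC1.1 genes, at 9.09% each way, lay near those shares. No list was tested against all genes.

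Among the genes with a gained peak at the start, some of the steepest inductions were found. S100P encodes a calcium-binding protein of epithelial cells, and its peak chr4:6695088-6695422 was centred 312 bp from the start. It stood at 116, 105, 131 and 106 CPM in siNON dex libraries, against 0.518, 0.822, 0.338 and 0.406 CPM in siNON EtOH (7.78 ± 0.15; edgeR adjusted p = 9.25e-16). The groups were far apart, and the EtOH level was close to detection. PDK4, a kinase that shuts off pyruvate oxidation, had 3 dex-enriched peaks within 50 kb, the nearest at 622 bp (chr7:95226381-95226715). It stood at 242, 249, 218 and 281 CPM in siNON dex libraries, against 5.14, 7.16, 6.73 and 5.60 CPM in siNON EtOH, with a log2 fold change of 5.33 ± 0.12 (edgeR adjusted p = 2.95e-15). Again no library of one group reached the other.

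TIPARP, whose promoter is printed above, stood at 881, 879, 794 and 1046 CPM in siNON dex libraries, against 26.9, 29.7, 36.8 and 29.9 CPM in siNON EtOH (4.87 ± 0.12; edgeR adjusted p = 5.60e-15). The start of its antisense partner TIPARP-AS1 shares the peak. That gene rose too, by 3.91 ± 0.25. Whether counting used strand is not stated, so it is not known whether reads of the pair were told apart. WNT16, the promoter with the full repeat, had 52.2, 54.3, 47.2 and 54.3 CPM in siNON dex libraries, against 4.14, 5.71, 4.82 and 5.06 CPM in siNON EtOH (3.40 ± 0.09; edgeR adjusted p = 5.69e-15). It has a shared peak at 1364 bp besides the gained one, and its groups did not overlap.

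Other large rises within 5 kb of gained peaks came from a mixed set of genes. They were the pepsinogen gene PGC (5.45), the junctophilin gene JPH4 (4.25), C6orf223 (3.96), the bZIP factor CEBPD (3.58) and the adrenaline-synthesis enzyme gene PNMT (3.05). In siNON EtOH, PGC, JPH4 and C6orf223 averaged 0.110, 0.256 and 0.351 CPM, close to detection. A shared peak lay closer to the start than the gained one at CEBPD (709 against 2986 bp) and PNMT (256 against 722 bp). Of the listed genes, FKBP5, with 3 gained peaks within 50 kb and the nearest at 1027 bp, stood at 516, 519.6, 502 and 534 CPM in siNON dex libraries, against 104, 102, 105 and 102 CPM in siNON EtOH, without overlap. The clock repressor PER1 rose by 3.01 ± 0.14 with its peak at 532 bp, and its 317, 339, 328 and 232 CPM in siNON dex libraries all lay above the 43.8, 36.2, 30.3 and 40.9 CPM in siNON EtOH. The ETS factor ELK1 rose by 2.06 ± 0.09 and the corepressor BCL6, a partner of BCOR, by 1.30 ± 0.09. PHF19, a Polycomb-like subunit of PRC2 with a peak at 539 bp, rose by 0.54 ± 0.06. KDM2B, the CpG-binding subunit of PRC1.1, had a gained peak centred 102 bp from its start, chr12:122018652-122018986. It had 86.2, 82.4, 81.2 and 66.5 CPM in siNON dex libraries, against 93.8, 85.5, 78.4 and 84.3 CPM in siNON EtOH. These groups overlapped and KDM2B was not called (-0.11 ± 0.08; edgeR adjusted p = 0.388), and nor were YAF2, HOXB2, PAX6, GBX2, SMARCA4 or MXD3. NCOA3, a GR coactivator, rose by 0.27 ± 0.08 but kept its call in 7 of 12 other fits. A gained peak at the start was therefore found at genes that rose and at genes that were not called.

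Falls also occurred beside gained peaks, though fewer. NRP2, with the peak nearest to its start of the genes named here, had 19.8, 18.1, 20.99 and 14.9 CPM in siNON dex libraries, against 47.1, 43.9, 37.7 and 41.2 CPM in siNON EtOH (-1.20 ± 0.10; edgeR adjusted p = 5.05e-08). Its groups did not overlap. HOXC4, a homeobox gene of the body axis, had 16.7, 16.2, 17.4 and 14.4 CPM in siNON dex libraries, against 45.1, 41.1, 39.3 and 42.6 CPM in siNON EtOH (-1.38 ± 0.08; edgeR adjusted p = 4.10e-10). HOXC5 and HOXC6 start at the same position with the same peak at 1344 bp, fell by 0.71 and 0.74, and share reads with it. The largest fall was that of RFESD (-1.58), followed after HOXC4 and NRP2 by C6orf141 (-1.09), GCSAM (-1.03), SEMA6A-AS1 (-0.85), the homeodomain factor PBX3 (-0.77), ZEB2, the neurodevelopmental gene AUTS2 and the homeobox gene BARX2 (both -0.74). ID2, an inhibitor of bHLH factors, fell by 0.29 ± 0.07.

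Genes beside lost peaks moved both ways. PDZD2, a multi-PDZ scaffold, had the peak chr5:31639284-31639602 centred 75 bp from its start. It stood at 55.2, 55.6, 59.7 and 50.1 CPM in siNON dex libraries, against 9.28, 11.7, 9.56 and 8.53 CPM in siNON EtOH, with no overlap (2.50 ± 0.09; edgeR adjusted p = 1.09e-12). A gained peak lay 7.91 kb from the same start. DGKE, a diacylglycerol kinase, and TNS2 rose by 1.23 ± 0.21 and 1.12 ± 0.18, and both also had a gained peak within 50 kb, at 3.46 and 30.9 kb. PCSK5, a proprotein convertase, rose by 0.71 ± 0.07 with none within 50 kb.

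In the other direction, HRK had 11.7, 12.1, 13.5 and 10.7 CPM in siNON dex libraries, against 21.3, 30.3, 20.4 and 22.1 CPM in siNON EtOH (-0.97 ± 0.11; edgeR adjusted p = 5.24e-06). ICOSLG fell by 0.62 ± 0.15, the bone morphogenetic ligand BMP7 by 0.51 ± 0.08, EFR3B by 0.46 ± 0.09, and PDGFB, a growth factor expressed near 1 CPM, by 1.09 ± 0.20. MAFA fell by 0.48 ± 0.15 and FOXA2 by 0.35 ± 0.11, calls kept in 6 and 4 of 12 other fits. EGR3 was not called. HRK had a gained peak 25.3 kb from its start, and ICOSLG, BMP7, EFR3B and MAFA had none within 50 kb. At BMP7, EFR3B and FOXA2 a shared peak was closer to the start than the lost one. It lay at 110, 29 and 551 bp, against 2124, 828 and 2472 bp for the lost peak. These starts thus had a peak of the shared list, with the width of a single rather than a merged peak.

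**Figure D5:**
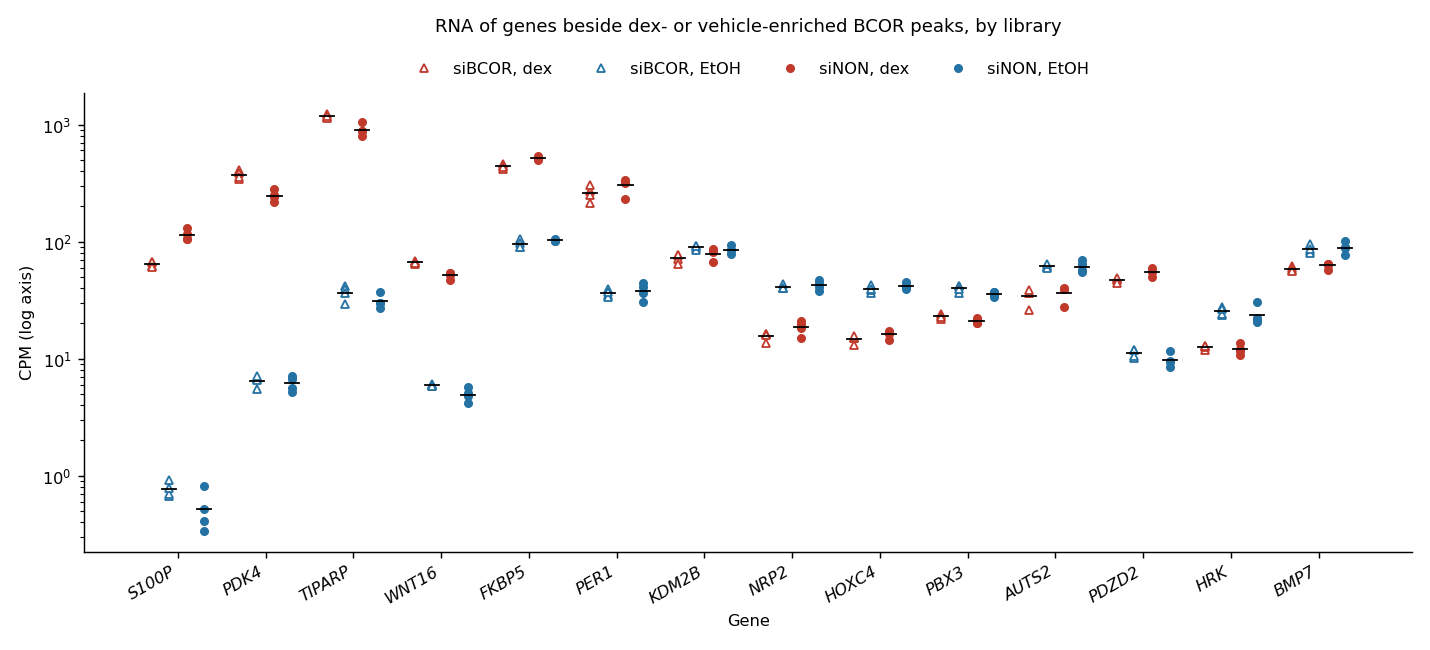
CPM on a log axis for 14 of the genes described, in each of the 4 libraries per group, with the mean as a bar, from siBCOR dex and siBCOR EtOH (open triangles) to siNON dex and siNON EtOH (filled circles). In siNON cells S100P, PDK4, TIPARP, WNT16, FKBP5, PER1 and PDZD2 are higher with dex, KDM2B overlaps, and NRP2, HOXC4, PBX3, AUTS2, HRK and BMP7 are lower with dex.

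The siBCOR libraries give the RNA of genes near gained and lost peaks when BCOR is depleted. This comparison shares the siNON libraries with the hormone comparison, so values are only set side by side. In dex, 3405 genes (20.7%) were higher and 3084 (18.8%) lower in siBCOR than in siNON cells. Of genes with a dex-enriched peak within 5 kb, 111 of 445 (24.9%) were higher and 100 (22.5%) lower. Of genes with a vehicle-enriched peak, 31 of 167 (18.6%) were higher and 39 (23.4%) lower. Genes near gained peaks thus moved both ways, with both shares a little above those of all genes, a difference that was not tested. The counts depended on siNON dex libraries: without replicate 1, 2 or 3, 15.1, 15.5 and 15.3% of the 445 were higher, and without replicate 4, 29.7%. The background moved with them, as the same fits called 2085, 2056, 1927 and 4470 genes higher over all genes, against 3405 in the full fit. Of genes near lost peaks, 11.4% were higher without siNON dex replicate 3. In EtOH, 1457 genes (8.87%) were higher and 1352 (8.23%) lower, with 41 (9.21%) and 25 (5.62%) of the genes near gained peaks and 15 (8.98%) and 17 (10.2%) of those near lost ones. With DESeq2 the EtOH counts were 1249 higher and 1751 lower, and without siNON EtOH replicate 3 they were 1054 and 2014. Leaving out 1 library at a time, genes near gained peaks were higher in 6.07 to 10.5% (lowest without siNON EtOH replicate 1) and lower in 3.59 to 10.6% (without siNON EtOH replicates 4 and 3). Genes near lost peaks were higher in 5.39 to 12.6%, lowest without siBCOR EtOH replicate 1 or siNON EtOH replicate 4. They were lower in 5.39 to 14.4%, with 5.39% without siBCOR EtOH replicate 1 and 5.99% without its replicate 3. Over all genes, leaving out 1 library at a time gave 890 to 1754 higher and 920 to 2014 lower, so the background moved as well.

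Gene density moved with this comparison too. In dex, genes within 50 kb of a gained peak but of no shared one were higher in siBCOR cells in 28.4% and lower in 17.4% (n = 920). With both kinds of peak they were higher in 16.3% and lower in 25.1% (n = 1296), and with no peak 24.5 and 14.4% (n = 7524). Over all genes, the share higher was 34.3, 31.8, 23.1, 11.5 and 5.61% from the sparsest to the densest bin. In the same bins it was 35.7, 32.5, 22.5, 10.5 and 5.22% for genes with a gained peak within 50 kb. In the share higher, genes near a gained peak thus lay close to all genes in each bin. The share lower was 11.9, 14.03, 23.1, 26.5 and 31.6% for genes with a gained peak within 50 kb. Over all genes it was 9.32, 10.8, 16.8, 24.1 and 30.8%. The share lower near gained peaks was thus above that of all genes in every bin, a difference that was not tested.

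By list, 9 of 37 glucocorticoid-induced genes were higher and 10 lower in siBCOR than in siNON cells in dex (24.3 and 27.0%). Of 36 HOX genes, 12 were higher and 1 lower (33.3 and 2.78%). Over all genes tested the shares were 20.7 and 18.8%, so the glucocorticoid-induced list lay near them. Neighbouring HOX genes share reads, and neither list was tested against all genes. Single genes near gained peaks differed in sign. S100P stood at 66.6, 62.4, 66.7 and 60.9 CPM in siBCOR dex libraries, against 116, 105, 131 and 106 CPM in siNON dex, a fall by 0.83 ± 0.10 (edgeR adjusted p = 1.24e-05). PGC (-1.44), ELK1 (-0.67), PHF19 (-0.26) and FKBP5 (-0.24) were also lower. PDK4 stood at 409.9, 339.9, 388 and 357 CPM in siBCOR dex libraries, against 242, 249, 218 and 281 CPM in siNON dex, a rise by 0.59 ± 0.09 (edgeR adjusted p = 0.000224). TIPARP (0.38), WNT16 (0.35) and ZEB2 (0.63) were higher as well. ID2 had 106, 112, 98.9 and 102 CPM in siBCOR dex libraries, against 49.0, 52.9, 50.2 and 54.7 CPM in siNON dex (1.02 ± 0.07, edgeR adjusted p = 1.08e-07). It was the one of these 10 genes also called in EtOH (0.56 ± 0.07). Outside these 10, NCOA3 and MXD3, each with a gained peak within 5 kb, were called in both. NCOA3 was higher (0.52 in dex, 0.62 in EtOH) and MXD3 lower (-0.47 in dex, -0.33 in EtOH). For S100P, PDK4 and ID2 the siBCOR and siNON libraries in dex did not overlap. At lost peaks, TNS2 (-0.66), ICOSLG (-0.86), EGR3 (-0.61) and FOXA2 (-0.41) were lower and DGKE (0.76) higher with siBCOR in dex. PDZD2 (-0.23) and MAFA (-0.47) were also called lower, but kept that call in 5 and 7 of 12 other fits. HRK, BMP7, PCSK5, EFR3B and PDGFB were not called.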

How the data were processed

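The 3 deposited hg19 peak lists give a start, an end, a name and a score that is 0 for every peak, per the file headers and values. The submitters' processing notes name Bowtie 0.12.9, HOMER 4.10.3, bedtools, Trimmomatic, FastQC, TopHat2 and hg19, with no role or order; the rule that made the lists is not given in the sources used here. The authors deposited raw read counts over exons of 65572 RefSeq transcripts for 16 RNA libraries, per the file headers. For each gene symbol 1 transcript was kept (27896 symbols, 27835 on the main chromosomes), and 134 transcripts without a gene name, 0.0664% of counts, were left out. No count column lacked a sample.

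Peak centres were compared with gene starts of the same count table. Peaks were linked into clusters at 10 kb, gene starts were counted within 500 kb, and 1 Mb windows covered each chromosome up to its last annotated transcript. Shares carry 95% Wilson intervals and medians carry order-statistic intervals, both for counting error only. RNA was fitted with edgeR 4.0.16 (TMM, quasi-likelihood test, all 16 libraries, Benjamini-Hochberg over 16432 genes, false discovery rate 0.05) in R 4.3.3, and the SE is the log2 fold change over the root of the F statistic. The scripts were tested on simulated data. Alternatives used DESeq2 1.42.0, other filters, 8 libraries, a replicate block and each library left out.

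Genes named are BCOR and NR3C1, the chromosomes with extreme gain shares, genes at the 10 largest dex-enriched and 5 largest vehicle-enriched clusters and the 10 most isolated gained peaks. Added to these are the 10 largest rises and 10 largest falls within 5 kb of dex-enriched peaks, 5 and 5 for vehicle-enriched peaks (at least 50 counts on average), and up to 4 genes per list with such a peak. A gene that this rule names is not reported here. GPR1 and the genes of long runs were named after their values were seen. Peak classes, gene lists, bins and rules were chosen with earlier results of these data known. Promoter windows came from RefSeq (GRCh38.p14), matched by accession, symbol or synonym for protein-coding genes outside chromosome 8; computations used Python 3.11.15, pandas 2.3.3 and scipy 1.17.1.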

Additional observations from a re-analysis of the deposited data

Results flagged for a closer look

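Of 136 groups of 4 libraries looked at among the named genes, 5 held a library whose gap to the others exceeded Dixon's 95% critical share of the group's range, where chance gives about 1 in 20. ZEB2, beside gained peaks, stood at 21.3 CPM in siNON EtOH replicate 3, against 12.9 to 13.8 CPM in the others of that group. CELF2, around a pair of gained peaks, stood at 82.0 CPM in the same library, against 66.1 to 66.6 CPM. AUTS2 stood at 27.4 CPM in siNON dex replicate 4, against 39.2 to 40.3 CPM, and FOXA2, beside a lost peak, at 5.61 CPM in that library, against 6.72 to 6.86 CPM. HRK stood at 30.3 CPM in siNON EtOH replicate 2, against 20.4 to 22.1 CPM.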

How the results depend on the processing

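The balance of calls turned in some fits: with dex 1675 higher and 1680 lower by DESeq2 and 1340 and 1529 without a filter, with siBCOR in dex 3391 and 3425 by DESeq2, and with siBCOR in EtOH 1249 and 1751 by DESeq2; the cause was not tested. In alternatives added after seeing the data, the gain and loss shares were 33.3 and 2.45% without peaks within 1 kb of a start, and 50.7 and 8.26% with merged shared peaks only. Median genes around dex-enriched, vehicle-enriched and shared peaks were 2, 3 and 3 within 100 kb, 45, 57 and 60 within 2500 kb, and 6, 9 and 8 for genes passing the RNA filter. Within 5 kb of a start lay 16.2, 55.8 and 44.2%. Within 1 kb of any transcript's start lay 6.97% of dex-enriched and 35.6% of shared peaks, and of starts of filtered genes 4.81 and 30.9%. Clustered shares were 3.67, 0 and 10.8% at a 5 kb link, 30.5, 3.00 and 53.7% at 50 kb, and 0.295, 0 and 3.74% for at least 3 peaks. The median distance from dex-enriched to shared peaks was 87.4 kb without promoter peaks and 239.6 kb among them, and that from vehicle-enriched to shared peaks 145.9 kb among them. The cause was not tested, but each follows a wider or narrower window, link or set.

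Leaving out 1 library at a time, genes higher and lower with dex numbered 1373 to 2072 and 1140 to 1978. Of genes near dex-enriched peaks, 34.2 to 39.3% were higher in these fits, and 28.1% without a filter on low counts. For siBCOR in dex the ranges were 1927 to 4470 and 2271 to 3700, and for siBCOR in EtOH 890 to 1754 and 920 to 2014. The lowest counts for siBCOR in dex came without siNON dex replicates 1, 2 or 3 (2085, 2056 and 1927 genes higher; 2395, 2335 and 2271 lower). Genes higher with siBCOR in EtOH were 866 without a filter (1263 lower) and 723 with only the 8 libraries compared (803 lower); the cause was not tested. Same-numbered replicates did not deviate together (correlations of -0.53 to 0.50), so the numbers were not taken to pair the samples. A replicate block gave 1673 higher and 1351 lower with dex, 3342 and 3082 with siBCOR in dex, and 1352 and 1315 in EtOH. ChIP depth is not given in the sources used here.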
